A study of Mus musculus with 9 samples.

Results

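Batf, Batf3, Irf1, Irf2, Irf4, Irf8, Bhlhe40 and Nfil3 encode transcription factors that are switched on or tuned when T cells meet antigen and cytokines. All 8 genes were taken by name, and all 8 were measured, by 10 of the 28898 array probe sets that are annotated to a single gene, out of 17097 genes in all. Where a gene had more than 1 probe set, the brightest on average over the 9 arrays stands for it. Expression was measured in CD8+ T cells that recognise the model antigen OVA and were sorted from mouse spleen 9 days after infection with Listeria monocytogenes, with 1 array per sample. All mice were of the C57BL/6 strain and carried floxed Tsc1 alleles (Tsc1-fl/fl). The 4 WT samples came from cre-negative mice, and the 5 Tsc1-/- samples came from mice positive for Granzyme B-cre. This cre is driven by the granzyme B gene's control region, which acts in activated cytotoxic cells, so deletion follows activation and cre itself cannot be told apart from the loss of Tsc1. The age and sex of the mice, and whether each sample came from a separate mouse, are not stated here, so p-values measure only the spread between these samples.

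BATF is a small basic leucine zipper protein that pairs with JUN proteins and, together with IRF4 or IRF8, binds joint AP-1 and IRF elements near many genes of activated lymphocytes. IRF4 accumulates with the strength of antigen receptor signalling, its accumulation is sensitive to mTOR inhibition, and it supports expansion and glucose metabolism of effector CD8+ T cells. IRF1 is an interferon-induced activator, and IRF2 competes with it for the same sites. BHLHE40 is a helix-loop-helix repressor induced by activation, and NFIL3 is a leucine zipper repressor that reads the D-box sites of clock genes. Tsc1 is part of the complex that holds mTORC1 activity down.

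Promoters of the members were searched for letters that these factors and the STAT proteins read. RefSeq windows (GRCm38.p6) of 300 bases, from 250 before to 50 after a transcription start, were at hand for 7 of the 8 members (9 windows, without Bhlhe40). Both strands were searched for the AP-1 element TGANTCA, the repeat GAAANNGAAA read by IRF proteins, the GAS element TTCNNNGAA read by STAT dimers, the E-box CACGTG and the D-box TTATGTAA. Of these, the AP-1 element, the GAS element and the E-box read the same on both strands. Of all 32851 windows, 7.81% held the AP-1 element, 3.44% the IRF repeat, 8.30% the GAS element, 7.15% the E-box and 0.938% the D-box. At least 1 of these 5 motifs was held by 24.8% of all windows. Among members, Batf3, Irf1, Irf2 and Irf8 held a match, and Batf, Irf4 and Nfil3 held none. For each of these 4 a GAS element or IRF repeat is shown, with the match in capitals, since IRF or STAT proteins read these letters.

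Irf1 (chr11:53769894-53769962, + strand, GAS element 90 to 82 bases before the start): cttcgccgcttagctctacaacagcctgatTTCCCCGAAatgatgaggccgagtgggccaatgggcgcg
Irf8 (chr8:120736157-120736225, + strand, GAS element 171 to 163 bases before the start): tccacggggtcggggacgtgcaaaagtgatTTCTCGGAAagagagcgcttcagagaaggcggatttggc
Irf2 (chr8:46739495-46739543, + strand, IRF repeat 241 to 232 bases before the start): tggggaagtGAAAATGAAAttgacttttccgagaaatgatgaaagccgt
Batf3 (chr1:191098164-191098213, + strand, GAS element 239 to 231 bases before the start): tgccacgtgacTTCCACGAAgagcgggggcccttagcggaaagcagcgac

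In Irf8 a further GAS match lies 153 to 145 bases before the start, in Irf2 one lies 224 to 216 bases before it, and in Batf3 an E-box lies 247 to 242 bases before it. None of these matches overlaps another. A match in letters is a description of these windows and was not tested for binding.

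The deposited values are log2 expression after RMA, so a difference of 1 is a doubling, and all differences below are Tsc1-/- minus WT. Array medians lay between 6.03 and 6.05 in WT and between 5.97 and 6.02 in Tsc1-/-, with every Tsc1-/- array below every WT array. The brightest Tsc1 probe set had a mean of 7.66 ± 0.09 (SD, n = 4) in WT against 7.40 ± 0.09 (SD, n = 5) in Tsc1-/- cells, a difference of -0.26 with an adjusted p of 0.114 (limma). Further Tsc1 probe sets, 1422043_PM_at and 1439989_PM_at, differed by -0.32 and -0.01 (adjusted p = 0.166 and 0.964, limma over all single-gene probe sets). The position of the Tsc1 probe sets relative to the deleted part was not analysed here, which limits this check of the labels. All 11 measured marker genes of CD8+ T cells lay above the median gene, with Cd8a at 12.08 in WT and 12.10 in Tsc1-/- and Cd3e at 11.81 and 11.82. Of 17097 genes, 219 passed an adjusted p under 0.05 (limma), 1.28% of those tested. Of these, 166 were higher (75.8% of the calls) and 53 lower, against 58 and 32 (64.4%) after quantile normalization and 381 and 57 (87.0%) after each array was centred on its median.

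None of the 8 members passed that threshold in either direction. Bhlhe40 came nearest, at 142% of its WT level with no overlap between genotypes. Batf followed at 119%, with overlapping groups. At an unadjusted p under 0.05 (limma) these 2 of 8 stood beside 17.2% of all genes, and the groups did not overlap for 1 of 8 members and for 7.96% of all genes (5.08% in the higher direction). Of the 8 differences, 3 lay under 0, compared with 51.8% of all genes. The median difference was 0.17 for the members and -0.01 for all genes, with members between -0.18 and 0.51. Shares of so few genes are near the background and no test was made on the group as a whole.

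**Figure D1:**
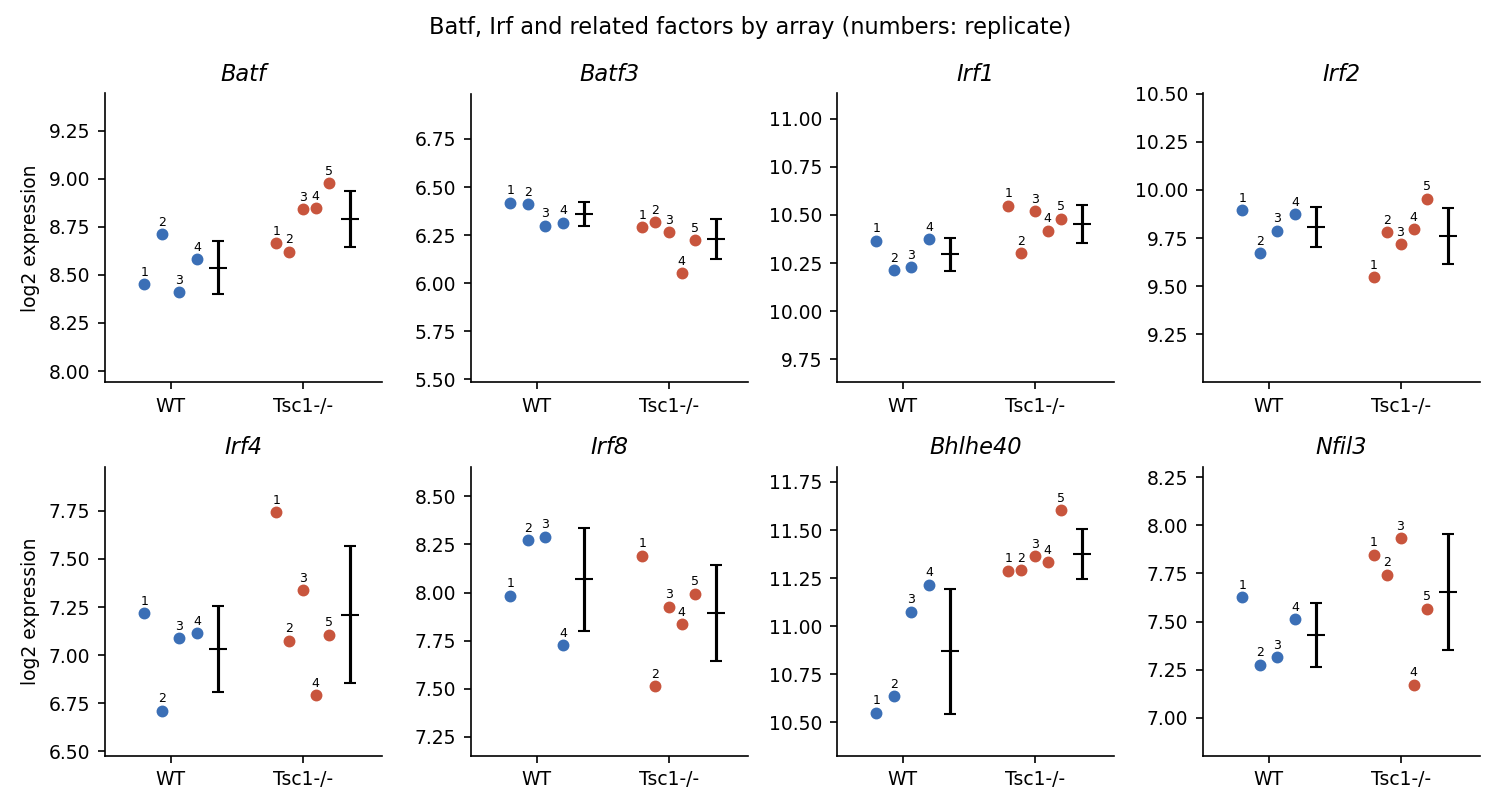
Log2 expression of each member by its brightest probe set in the 4 WT (blue) and 5 Tsc1-/- (red) arrays, numbered by replicate, with the mean and SD in black; every panel spans the same range of 1.5 log2 units. Bhlhe40 is the member whose groups do not overlap, with WT between 10.55 and 11.22 and Tsc1-/- between 11.29 and 11.60.

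Bhlhe40, the activation-induced repressor, had the widest spread over the 9 arrays of all members (SD 0.35). Its probe set 1418025_PM_at read 10.55, 10.64, 11.08 and 11.22 in WT replicates 1 to 4. In Tsc1-/- replicates 1 to 5 it read 11.29, 11.29, 11.36, 11.33 and 11.60. The WT arrays thus fell into a lower pair, replicates 1 and 2, and a higher pair, replicates 3 and 4, and the highest WT array lay just below the lowest Tsc1-/- arrays. The means were 10.87 ± 0.33 (SD, n = 4) and 11.38 ± 0.13 (SD, n = 5), a difference of 0.51 (SE 0.14, 95% interval 0.21 to 0.80, adjusted p = 0.0808, limma).

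The Bhlhe40 difference stood near the threshold, and its call depended on the setting. It passed with dim genes left out (adjusted p = 0.0423, where 7.89% of genes passed), with array weights (0.0468, where 2.72% passed) and without WT replicate 4 (0.62, adjusted p = 0.0327, where 2.67% passed). It also passed without WT replicate 4 and Tsc1-/- replicate 1 together (0.64, adjusted p = 0.0421, where 2.30% passed) and at an adjusted p under 0.1 (where 4.32% passed). Without WT replicate 1 the difference was 0.40 (adjusted p = 0.227, limma). Its direction did not change in the 22 other settings. Some of these, such as the filter, variance model and threshold, leave the difference itself unchanged and could not turn it. With the B cell or macrophage marker level in the model the difference was 0.16 (SE 0.16) and 0.19 (SE 0.16), against 0.51 without them. With the dendritic cell marker level it was 0.45 (SE 0.21).

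Batf, the dimer partner of JUN proteins, was measured by probe set 1419410_PM_at. WT replicates 1 to 4 read 8.45, 8.71, 8.41 and 8.58. Tsc1-/- replicates 1 to 5 read 8.67, 8.62, 8.84, 8.85 and 8.98. WT replicate 2 lay above Tsc1-/- replicates 1 and 2, and the other 3 WT arrays lay below every Tsc1-/- array. The means were 8.54 ± 0.14 (SD, n = 4) and 8.79 ± 0.14 (SD, n = 5), a difference of 0.25 (SE 0.10, 95% interval 0.04 to 0.46, adjusted p = 0.204, limma). Over the 22 other settings the difference ran from 0.13 to 0.39 and the adjusted p from 0.111 to 0.848, and in 7 of them the unadjusted p was no longer under 0.05 (limma). The difference was 0.13 with the B cell level, 0.18 with the macrophage level and 0.39 with the dendritic cell level in the model.

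Batf3, the close relative that cross-presenting dendritic cells need and that supports survival of CD8+ T cells into memory, was a dim gene here. Its mean over all arrays, 6.29, lay under the median over genes, 6.34. Probe set 1453076_PM_at read 6.42, 6.41, 6.30 and 6.31 in WT replicates 1 to 4 and 6.29, 6.32, 6.27, 6.05 and 6.23 in Tsc1-/- replicates 1 to 5. Of the Tsc1-/- arrays, 4 lay below all WT arrays and replicate 2 lay just above WT replicates 3 and 4. The difference was -0.13 (SE 0.08, 95% interval -0.30 to 0.04, adjusted p = 0.429, limma), so Batf and Batf3 differed in opposite directions without either passing.

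Irf4, which scales with antigen receptor signals, varied more within a genotype than between genotypes. Its brightest probe set, 1421174_PM_at, read 7.22, 6.71, 7.09 and 7.11 in WT replicates 1 to 4. In Tsc1-/- replicates 1 to 5 it read 7.75, 7.08, 7.34, 6.79 and 7.11. Tsc1-/- replicate 1 was the highest array and WT replicate 2 the lowest, and Tsc1-/- replicate 4 lay below 3 of the 4 WT arrays. The difference was 0.18 (SE 0.17, 95% interval -0.19 to 0.54, adjusted p = 0.638, limma), and without Tsc1-/- replicate 1 it was 0.04 (adjusted p = 0.906, limma). The second Irf4 probe set, 1421173_PM_at, differed by 0.07 (SE 0.13, adjusted p = 0.835 over all single-gene probe sets, of which 0.827% passed). The interval allows a level in Tsc1-/- between 87.9% and 145% of WT, so neither a moderate rise nor a small fall could be told from no change with these arrays.

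Irf8 can take the place of Irf4 beside Batf, and it is also a defining factor of B cells, dendritic cells and monocytes. Its brightest probe set, 1448452_PM_at, read 7.98, 8.27, 8.29 and 7.73 in WT replicates 1 to 4 and 8.19, 7.51, 7.93, 7.84 and 7.99 in Tsc1-/- replicates 1 to 5. The groups overlapped, with WT replicate 4 below 4 of the 5 Tsc1-/- arrays. The difference was -0.18 (SE 0.15, 95% interval -0.49 to 0.14, adjusted p = 0.581, limma). It was -0.08 without Tsc1-/- replicate 2 (adjusted p = 0.817, limma) and -0.29 without WT replicate 4 (adjusted p = 0.317, limma). The second Irf8 probe set, 1416714_PM_at, had a wider spread, with 7.36, 7.89, 7.72 and 6.99 in WT and 7.33, 6.96, 7.40, 6.94 and 7.69 in Tsc1-/-. It differed by -0.23 (SE 0.19, adjusted p = 0.608, limma over all single-gene probe sets), so both probe sets had the same sign and neither passed.

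Markers of other spleen cells were given beside these members, since Irf8, Batf3 and Irf4 are also expressed there, and in bulk samples fewer cells of a type and less RNA per cell cannot be told apart. The mean log2 level of 11 B cell markers was 5.89 to 6.39 in WT and 5.57 to 5.95 in Tsc1-/-, a difference of -0.38. By the list's median in place of its mean it was only -0.12 (-0.64 and -0.22 for the macrophage and dendritic cell lists below). The B cell genes ran from -0.70 (Bank1) to 0.01 (Blk), with 10 of 11 under 0. Of them, 5 were lower at an unadjusted p under 0.05 (limma), against 7.34% of all genes. The level of 14 macrophage and monocyte markers was 6.90 to 7.60 and 6.76 to 7.10, a difference of -0.43, and 9 of its 14 genes were lower at an unadjusted p under 0.05 (limma), against 7.34% of all genes. Spic, a macrophage transcription factor, was the only marker of another cell type to pass over all genes, and fell by 0.69 (adjusted p = 0.0339, limma). The level of 8 dendritic cell markers was 6.34 to 6.64 and 6.13 to 6.43, a difference of -0.24, and all 8 genes had a difference under 0, among them Xcr1, a marker of the Batf3-dependent dendritic cells (-0.39, adjusted p = 0.245, limma). Ccr2 and Cx3cr1 of the macrophage list and Itgax of the dendritic cell list were bright, with WT means of 10.36, 9.95 and 10.18. They differed by -0.23, 0.23 and -0.13. Whether the CD8+ T cells themselves gave part of these levels was not tested, which also limits the fits with marker covariates. In the exact two-sided permutation test the unadjusted p was 0.0317 (B cell), 0.0476 (macrophage and monocyte) and 0.0397 (dendritic cell). None of these 3 lists passed after adjustment (adjusted p = 0.143 each over 9 lists, exact permutation). The smallest possible unadjusted p is 0.00794, so 1 list alone could not pass over 9 lists, and no conclusion is drawn from this.

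Plasma cell markers, 4 genes, lay between 6.53 and 7.25 in WT and between 6.17 and 6.70 in Tsc1-/- (exact permutation, adjusted p = 0.179). Among them Jchain differed by -1.71, Xbp1 by 0.21 and Tnfrsf17 by 0.09, so the list had no common sign. By the brightest Irf4 probe set, WT replicate 1 had the highest plasma cell level and the highest WT reading of Irf4. WT replicate 2 had the next highest level (6.81) and the lowest Irf4 by that probe set. The second Irf4 probe set read 6.644, 6.645, 6.355 and 6.229 in WT replicates 1 to 4, higher in the arrays with the higher plasma cell levels. This order did not hold within Tsc1-/-. There replicate 3 read highest (6.87) at a plasma cell level of 6.34, and replicate 2, with the highest level (6.70), read 6.48. The markers of neutrophils, NK cells, erythroid cells and CD4+ T cells differed by -0.35, -0.08, -0.25 and 0.01, and those of CD8+ T cells by 0.02 (exact permutation, adjusted p = 0.592 or higher for each). RMA gives no value of 0, so no marker can be called absent. Of the B cell, macrophage and dendritic cell markers, 8 of 11, 5 of 14 and 6 of 8 lay under the median gene.

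Within WT, Irf8 and these markers were lowest in the same array. Replicate 4 had the lowest Irf8 and the lowest B cell (5.89), macrophage (6.90) and dendritic cell (6.34) level, while replicates 2 and 3 had the highest Irf8. Within Tsc1-/- the order differed by list, with Irf8 read by its brightest probe set. Replicate 2 had the lowest Irf8 (7.51) with the highest macrophage level (7.10) and the lowest dendritic cell level (6.13). Replicate 1 had the highest Irf8 (8.19) and the highest B cell level (5.95), at a macrophage level of 6.98. The second Irf8 probe set gave another order within Tsc1-/-. By it, replicate 5 was highest (7.69) at the lowest B cell level (5.57), and replicate 4 was lowest (6.94) at the lowest macrophage level (6.76). With the macrophage, B cell or dendritic cell level as a covariate, the Irf8 difference was 0.03 (SE 0.20), 0.03 (SE 0.22) and 0.17 (SE 0.18). The sign of Irf8 thus turned in all 3 of these fits. It stayed negative in the 19 other settings, some of which could not change the difference. For Batf3 and Irf4 the same 3 fits gave -0.03, -0.07 and -0.11 and 0.18, 0.17 and 0.10.

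**Figure D2:**
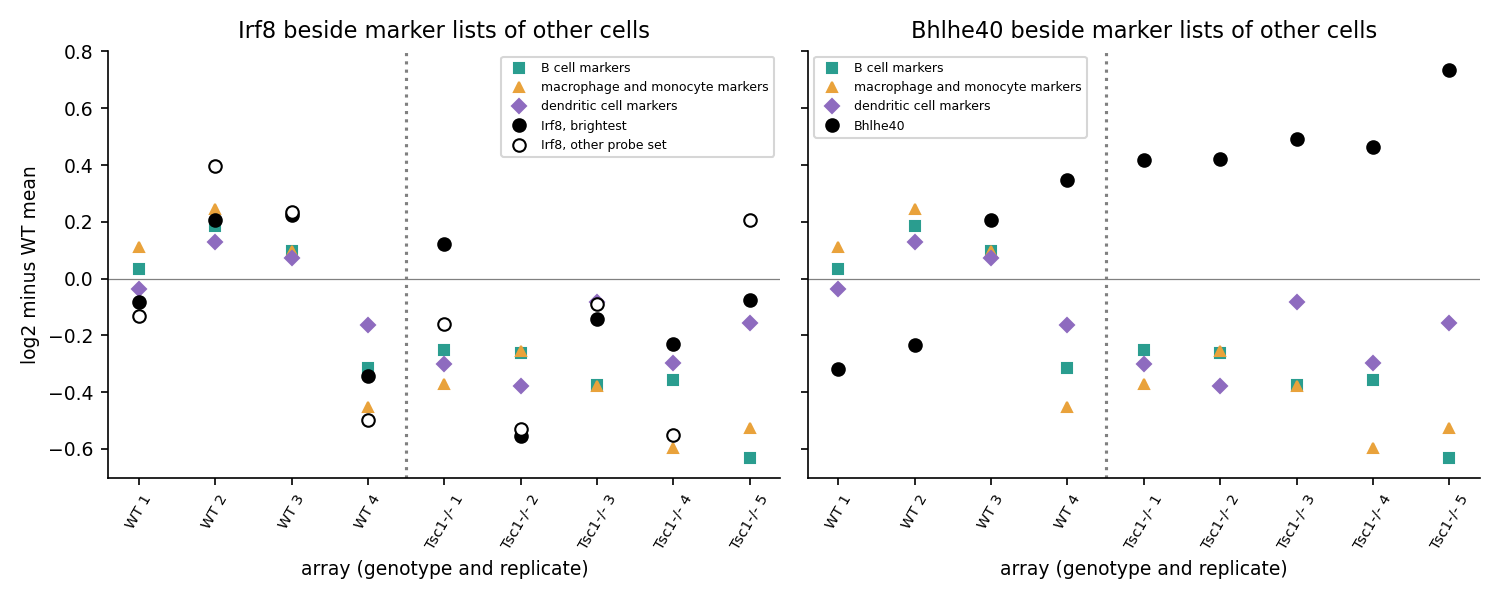
Irf8 (left, both probe sets) and Bhlhe40 (right) in each of the 9 arrays beside the mean level of the B cell, macrophage and dendritic cell markers, all as log2 minus the WT mean; the dotted line parts WT from Tsc1-/-. In WT replicate 4 Irf8 and all 3 marker lists lie below the WT mean, while Bhlhe40 lies above it there and in all Tsc1-/- arrays. In WT replicate 3 Bhlhe40, Irf8 and all 3 marker lists lie above it.

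Irf1, the interferon-induced activator, was measured by probe set 1448436_PM_a_at. It read 10.37, 10.21, 10.23 and 10.37 in WT replicates 1 to 4 and 10.55, 10.30, 10.52, 10.42 and 10.48 in Tsc1-/- replicates 1 to 5. Tsc1-/- replicate 2 fell among the WT arrays and the other 4 lay above all of them. The difference was 0.16 (SE 0.08, 95% interval -0.02 to 0.33, adjusted p = 0.337, limma). Irf2, which competes with Irf1, differed by only -0.05 (SE 0.09, 95% interval -0.25 to 0.15, adjusted p = 0.838, limma). Its probe set 1418265_PM_s_at, whose suffix marks a design that may also read related transcripts, gave 9.67 to 9.90 in WT and 9.55 to 9.95 in Tsc1-/-, so the WT range lay inside the Tsc1-/- range. For Irf2 the interval bounds the level in Tsc1-/- to between 84.2% and 111% of WT.

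Nfil3, the D-box repressor, was measured by probe set 1418932_PM_at. It read 7.63, 7.28, 7.32 and 7.51 in WT replicates 1 to 4. In Tsc1-/- replicates 1 to 5 it read 7.85, 7.74, 7.93, 7.17 and 7.57. Tsc1-/- replicate 4 was the lowest of all 9 arrays, and replicates 1 to 3 were above every WT array. The difference was 0.22 (SE 0.14, 95% interval -0.09 to 0.53, adjusted p = 0.463, limma) and without Tsc1-/- replicate 4 it was 0.34 (adjusted p = 0.159, limma).

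**Figure D3:**
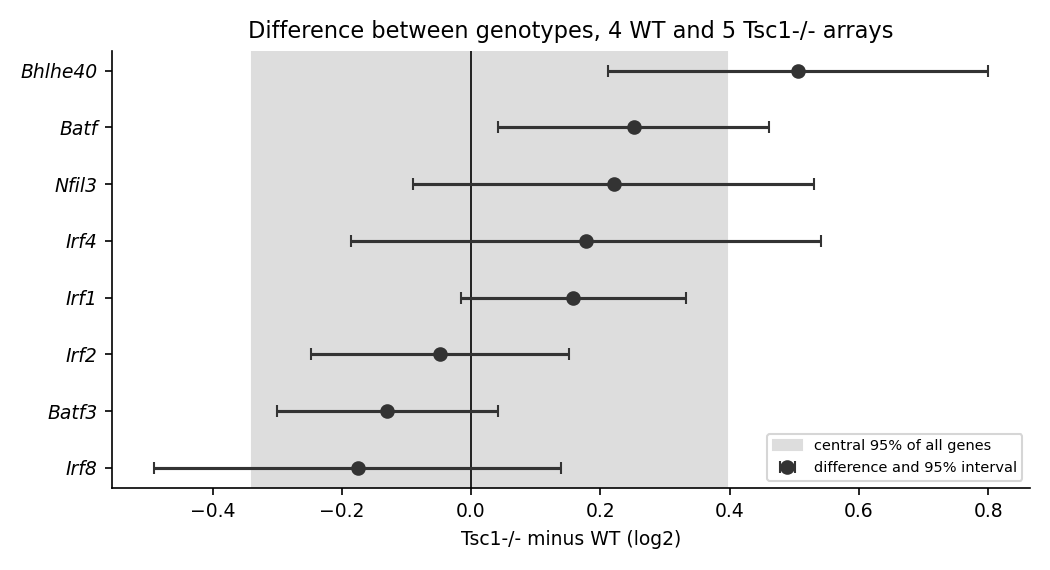
Difference between genotypes (Tsc1-/- minus WT, log2) of the 8 members with limma's 95% interval, ordered by size; the grey band holds the central 95% of the differences of all 17097 genes, from -0.34 to 0.40. Bhlhe40 (0.51) lies outside the band, and the intervals of Bhlhe40 and Batf alone do not include 0, before adjustment over all genes.

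Tsc1-/- replicate 1 was the highest array for Irf4 and Irf1 and the lowest for Irf2, and Tsc1-/- replicate 4 was the lowest for Batf3 and Nfil3. The genes most like the 3 most variable members were found among 8223 genes at or above the median level, with predicted genes left out, by the root mean square difference of centred log2 values over the 9 arrays. Nearest to Bhlhe40 were Cks2, a cofactor of cyclin-dependent kinases (0.06), Dbf4, the activator of the replication kinase Cdc7 (0.09), and Rps27l, a p53-responsive ribosomal protein relative (0.10). Cks2 read 9.47, 9.36, 9.91 and 10.02 in WT and 10.06, 10.13, 10.08, 10.06 and 10.39 in Tsc1-/-. It showed the same lower pair of WT arrays as Bhlhe40, and differed by 0.45 (adjusted p = 0.110, limma). Nearest to Irf4 were Aplp1 (0.08), Pitrm1 (0.13) and Slc48a1 (0.14). Nearest to Nfil3 were Gfi1, a zinc finger repressor (0.07), Pitrm1 (0.09) and H2aw (0.11), and none of these genes passed the threshold.

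The other genes of these pathways were read from 7 lists. Of 7 measured other interferon regulatory factors and IRF2-binding proteins, none passed (limma, 1 lower at an unadjusted p under 0.05, against 7.34% of all genes). All 7 lay below 0, between -0.21 and -0.03, against 51.8% of all genes, and 6 of 7 after median centring, where Irf9 turned to 0.02 and 40.4% of all genes lay below 0. The corepressor Irf2bp2 differed by -0.21 (adjusted p = 0.247, limma) and Irf2bpl by -0.12 (adjusted p = 0.496, limma). Irf7 and Irf9, which carry type I interferon signals, differed by -0.10 and -0.03.

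Among 15 AP-1 partners and relatives of Batf, none passed (limma). At an unadjusted p under 0.05, 3 were lower, against 7.34% of all genes, and the median difference was 0.00. The JUN genes that pair with Batf differed by -0.28 (Jun), 0.13 (Junb) and -0.22 (Jund), with no common sign. The largest differences were those of the immediate early genes Fosb (-0.84, adjusted p = 0.0718, limma) and Fos (-0.73, adjusted p = 0.140, limma). Fosb read 9.16, 8.92, 8.72 and 8.14 in WT and 8.02, 7.96, 8.37, 7.32 and 7.81 in Tsc1-/-, with overlap only between WT replicate 4 and Tsc1-/- replicate 3. Bach2, a repressor that competes with Batf at AP-1 sites, differed by -0.36 (adjusted p = 0.177, limma), the reverse sign of Batf.

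Of 12 listed partners of Irf4 and Irf8 (Ets and Ikaros factors with Bcl6, Id2 and Stat3), none passed (limma), and 2 were lower at an unadjusted p under 0.05, against 7.34% of all genes. All 12 lay below 0, against 51.8% of all genes, with a median of -0.09, and 10 of 12 after median centring, where Ikzf3 and Stat3 turned to 0.01 each. The largest were Bcl6, the repressor of germinal centre cells and memory precursors (-0.46, adjusted p = 0.166, limma), and Spib (-0.37, adjusted p = 0.143, limma). Spib and Spi1 (-0.34) encode Ets factors of B and myeloid cells, whose markers were lower in the same arrays, and the part of those cells in these values was not tested. Of 14 genes of antigen receptor signalling upstream of Irf4 and Batf, none passed and none had an unadjusted p under 0.05 (limma). The differences of that list lay between -0.17 (Nfatc2, adjusted p = 0.331, limma) and 0.13 (Malt1), and the protein kinase Prkcq differed by -0.16 (adjusted p = 0.299, limma).

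The list of genes tied to Batf and Irf4 in CD8+ T cells held called members. Of 22 measured, 2 rose and 1 fell, against 0.971% and 0.31% of all genes. Il12rb2, which encodes the beta 2 subunit through which IL-12 signals, rose by 0.74, Gzmb by 0.58, and the T-box factor Eomes fell by 0.58 (adjusted p = 0.0314, 0.0339 and 0.0359, limma). These were already known from these data when the list was made, so they are not independent evidence. Whether the Granzyme B-cre transgene bears on the Gzmb value was not tested. The chemokine genes Ccl3 and Ccl4 differed by 0.60 and 0.39 (adjusted p = 0.0741 and 0.0803, limma) and the inhibitory receptor gene Havcr2 by 0.50 (adjusted p = 0.105, limma). Direct targets often named for this pair had small differences, with Prdm1 at 0.02, Il10 at 0.02, Ctla4 at -0.03 and Tbx21 at 0.00. Il10 was dim, with a mean of 4.37 over all arrays, and the Ctla4 interval allows 69.5% to 138% of WT. The glucose genes Slc2a1, Slc2a3, Hk2 and Pfkp differed by 0.10, 0.11, 0.18 and 0.09.

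Interferon gamma genes tied to Irf1 and Irf2 lay mostly above 0, as Irf1 did. Of 27 measured, none passed, 21 were above 0 and 6 below, against 51.8% of all genes below 0. After quantile normalization 7 were below 0, as Gbp4 turned to -0.01, against 48.5% of all genes. After median centring 6 were, against 40.4% of all genes. At an unadjusted p under 0.05 (limma) 8 were higher, where 9.83% of all genes were. The median difference was 0.15. The groups did not overlap, all in the higher direction, for 4 of them, against 5.08% of all genes in that direction. These were Psme2, Psmb10, Psme1 and Psmb9, which encode parts of the immunoproteasome and its activator. Psmb8 of the same list differed by 0.13, with overlapping groups. The pattern was not particular to this list. Psmb5, a proteasome gene outside it, was also higher without overlap, by 0.44 (adjusted p = 0.0519, limma). Psmb10 read 10.45 to 10.56 in WT and 10.67 to 10.85 in Tsc1-/-, a difference of 0.24 (adjusted p = 0.114, limma), and Psme2 read 10.11 to 10.30 and 10.34 to 10.58, a difference of 0.27 (adjusted p = 0.114, limma). Cxcl10, the chemokine, had the largest difference of the list (0.55, adjusted p = 0.115, limma), while the receptor chains Ifngr1 and Ifngr2 differed by -0.11 and -0.25.

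Of 17 clock and PAR bZIP genes tied to Bhlhe40 and Nfil3, none passed (limma, 1 lower at an unadjusted p under 0.05, against 7.34% of all genes), and the median was -0.02. Ciart, a clock repressor, differed by -0.32 (adjusted p = 0.195, limma) and Per1 by 0.26 (adjusted p = 0.318, limma). Dbp, Tef and Hlf, the activators that NFIL3 opposes at D-box sites, differed by -0.11, 0.03 and 0.25, and Bhlhe41, the paralog of Bhlhe40, by -0.15 against 0.51 for Bhlhe40.

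**Figure D4:**
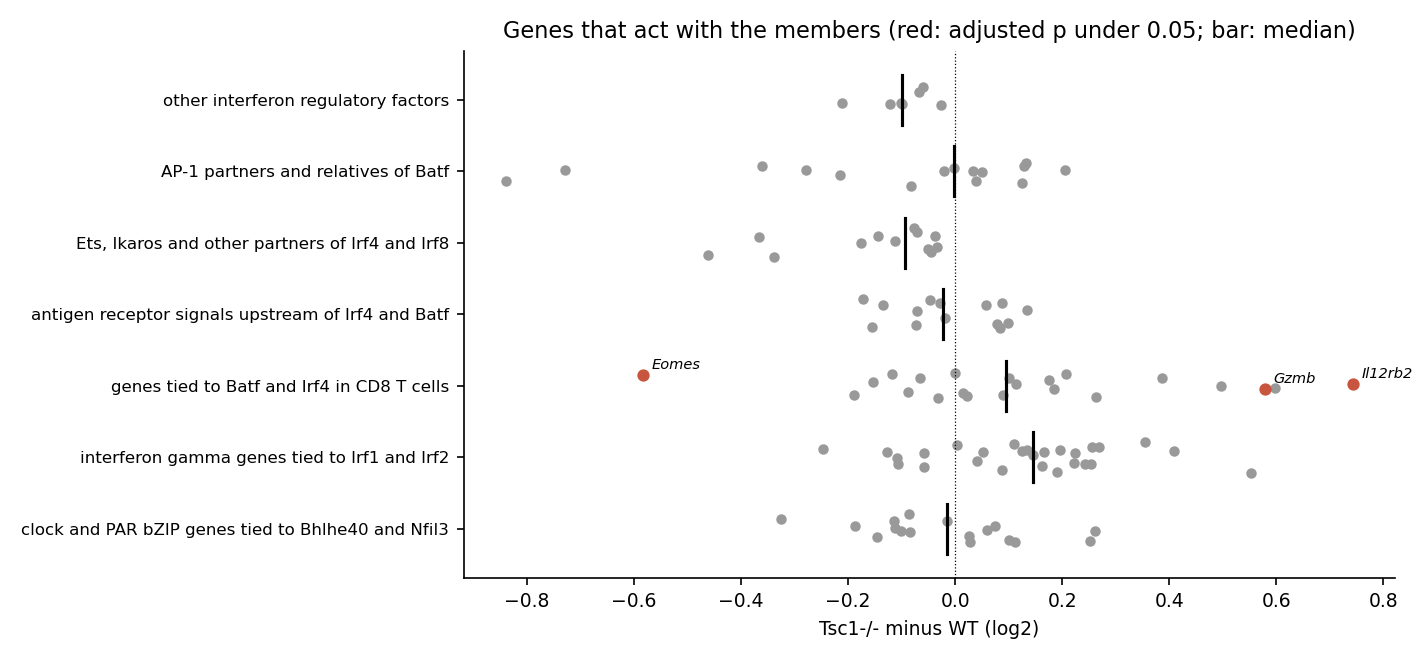
Differences (Tsc1-/- minus WT, log2) of every measured gene of the 7 pathway lists, each point a gene and each bar a list's median; red points passed an adjusted p under 0.05. The 3 red points are Il12rb2 (0.74), Gzmb (0.58) and Eomes (-0.58), and the points of the other interferon regulatory factors and of the Ets, Ikaros and other partners all lie below 0 as deposited, while Irf9, Ikzf3 and Stat3 turned above 0 after median centring.

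**Figure D5:**
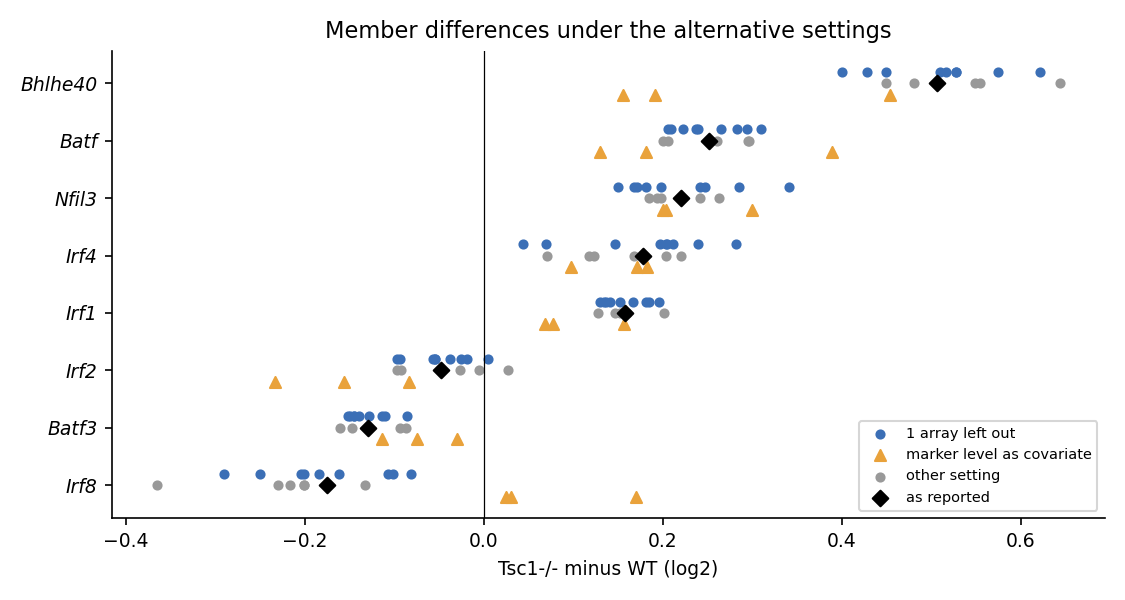
Difference of each member (Tsc1-/- minus WT, log2) as reported (diamond), with 1 array left out (blue), with a marker level as covariate (triangles) and under the other settings (grey). Irf8 turns from -0.18 to between 0.03 and 0.17 with the marker covariates, and Bhlhe40 ranges from 0.16 to 0.64.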

How the data were processed

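The authors deposited log2 expression values for each probe set; RMA and Partek 6.5 are named in the submitters' processing notes, without options, filters or a genome build. RMA commonly sets the probes of all arrays to 1 distribution, which can largely remove a shift shared by most transcripts; the summarised arrays still differed slightly in their medians. Per the labels, each sample gave 12 ng of total RNA for amplification. Of 45037 probe sets, 28898 had 1 gene in the platform annotation, 551 several and 15588 none; 28689 matched the RefSeq gene table by Entrez identifier. Each of 17097 genes was tested with limma 3.58.1 (R 4.3.3; lmFit, eBayes, genotype only, two-sided, Benjamini-Hochberg over all genes, threshold 0.05, no filter). Marker lists were compared by exact permutation over 126 splits, whose smallest p is 0.00794. The labels give no batch. The alternatives changed the probe sets used, the filter, normalization, variance model, array weights, block, threshold, marker covariates or arrays included.

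The members and the lists were chosen with earlier results of these data known. Named genes were all members, Tsc1, and from each pathway list up to 4 genes past the threshold with the smallest p, or 2 where none passed; the 3 most similar genes were given for the 3 most variable members. Other list genes named were chosen after their values were seen. Of the pathway and marker entries, some had no named probe set and are not analysed here. Replicate numbers recur in both genotypes without a stated pairing. The gene test was tested on simulated data. Figures were drawn in Python 3.11.15.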

Additional observations from a re-analysis of the deposited data

Results flagged for a closer look

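In 4 of 74 groups of arrays examined, 1 array stood apart from the rest of its genotype by Dixon's criterion, which chance meets in about 1 of 20. Bhlhe40 read 11.60 in Tsc1-/- replicate 5, with the other 4 between 11.29 and 11.36. Gzmb read 12.40 in Tsc1-/- replicate 1, with the others between 12.00 and 12.11. Eomes read 8.91 in WT replicate 1, with the others between 8.59 and 8.62. Irf2bp2 read 9.60 in WT replicate 4, with the others between 9.91 and 9.96.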

How the results depend on the processing

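The number of members past the threshold was 0 as reported and 1, in each case Bhlhe40, with dim genes left out, with array weights, at an adjusted p under 0.1, and without WT replicate 4 and Tsc1-/- replicate 1 together. With 1 array left out it was 0 to 1. Over all genes, 219 passed as reported, 694 with dim genes left out, 90 after quantile normalization, 438 after median centring, 680 with a variance trend and robust estimation, 465 with array weights, 738 at 0.1, 393 without those 2 arrays, and 2 to 456 with 1 array left out (WT replicates 1 to 4: 2, 3, 83 and 456; Tsc1-/- replicates 1 to 5: 188, 8, 53, 30 and 2). With the replicate number as a block (replicate block, in which Tsc1-/- replicate 5 has no partner and drops out), 0 passed in limma (2354 at an unadjusted p under 0.05) and Bhlhe40 differed by 0.45. Same-numbered arrays correlated between -0.10 and 0.09 after removal of group means, so no pairing was visible in these values, and the labels state none. With the macrophage, B cell or dendritic cell level as a covariate, 0 passed in limma (1683, 1450 and 1740 at an unadjusted p under 0.05). Irf8 turned positive in these fits (0.025, 0.030 and 0.17), and Irf2 without Tsc1-/- replicate 1 (0.0047) or without that array and WT replicate 4 (0.027); the cause was not tested. Batf, Batf3, Irf1, Irf4, Bhlhe40 and Nfil3 kept their direction in all 22. The filter, variance model, threshold and unjoined probe sets leave a difference unchanged, so those settings could not turn a direction. The CD4+ T cell marker difference ranged from -0.015 to 0.028 with 1 array left out. No marker list passed the permutation test after adjustment over the lists under any setting, where so few arrays left little room to pass. The number of arrays limits precision.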
